A study of Ovis aries with 30 samples.

Results

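Between fetal day 90 and 10 weeks after birth, 321 genes moved in opposite directions in sheep lung and kidney: 171 rose in lung and fell in kidney, and 150 fell in lung and rose in kidney. In 4 of them the change exceeded a doubling in each organ by limma's test against that threshold. These were FAP, a protease of stromal fibroblasts, and TNFAIP6, a hyaluronan-binding protein, in the first group, and SERPINA1 (alpha-1-antitrypsin) and PHGDH, an enzyme of serine synthesis, in the second. A second TNFAIP6 probe set moved by only -0.12 in kidney. The comparison was the change in lung (10 weeks minus fetal day 90) minus the same change in kidney, called the organ difference below. It used 20 of the 30 arrays of the series, 5 each for fetal lung, lung at 10 weeks, fetal kidney and kidney at 10 weeks, with groups taken from the sample titles. All 9155 genes with a probe set of a single symbol were tested, each through its brightest probe set over all 30 arrays. A gene was counted as an opposite mover when its organ difference and its change in each organ were called (limma, Benjamini-Hochberg adjusted p under 0.05) and the changes had opposite signs.

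The animals were sheep (Ovis aries), and total RNA from whole frozen organs was hybridised to an Affymetrix array that carries bovine probes. The labels name no treatment, strain or mutation, and give the ages as fetal day 90, 10 weeks and adult. The 10 adult arrays, 5 of each organ, entered the choice of each gene's probe set and the estimate of the spread, and otherwise only show levels later in life. The submitters' design text calls the 5 arrays of a group biological replications. Titles give animal numbers, and fetal lung arrays 14A and 14B share one. Each was taken as a separate sample.

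Lung and kidney both grow by branching of an epithelial tube into surrounding mesenchyme. Before birth the lung is filled with liquid and exchanges no gas, and after birth its alveoli divide while type II cells secrete surfactant and immune cells settle in the airspaces. The fetal kidney still forms nephrons at its rim, and the lamb's kidney has lost that zone and reclaims filtered solutes in its proximal tubules, which burn fatty acids for energy. Fetal liver makes many of the plasma proteins named below and is a site of blood formation.

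Values are log2 expression, so that a difference of 1 is a doubling, and changes are given with standard errors from limma over 5 arrays a group. The values ran from 2.44 to 15.23, with array medians of 6.57 to 6.81. Sheep RNA can read low on bovine probes whatever its level, so genes are compared between groups and not with each other. The surfactant gene SFTPC read 12.10 to 12.47 in lung at 10 weeks and 5.54 to 5.88 in kidney at that age. UMOD, the uromodulin of the kidney's thick ascending limb, read 11.17 to 11.60 in fetal kidney and 5.07 to 5.70 in fetal lung. Each labelled organ thus carried these markers, except that the probe set of SLC12A1, the transporter of the same tubule segment, stayed between 3.62 and 4.40 in all 30 arrays. NKX2-1, LRP2 and PAX2 were not among the genes tested.

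Fetal lung arrays 26B and 80B stood apart from fetal lung arrays 10A, 14A and 14B. The mean over a list of 28 measured liver proteins was 11.64 in 26B and 10.37 in 80B, against 6.93 to 7.64 in the other 3 and 6.11 to 6.41 in lung at 10 weeks. Fetal kidney arrays, one of which carries the number 80B too, ranged from 7.09 to 7.38, and kidney arrays at 10 weeks from 7.78 to 8.19. For 26 of the 28 liver genes (92.9%), 26B and 80B were the highest 2 of the 5 fetal lung arrays, against 16.1% of all genes. ARG1, an enzyme of the urea cycle, read 12.87 and 11.98 in 26B and 80B, and 5.92 to 6.75 in the other 3. CPS1, which starts the same cycle, read 12.01 and 11.07 in 26B and 80B, and 6.16 to 7.26 in the other 3. The exceptions were ALB and AHSG, which encode albumin and fetuin-A and were lowest in 26B and 80B or level with the others, and FGB, a fibrinogen chain, stayed between 4.18 and 4.48 in all 5 arrays. The mean of the erythroid list was also higher in the same arrays, at 9.46 and 8.06 against 6.76 to 6.96. The globin gene HBB was an exception, at 13.33 in 26B and 13.57 in 80B against 13.48 to 13.51. The globin gene HBG read 11.91 in 26B and 11.29 in 80B, against 11.18 to 11.24. The lung markers SFTPC, SFTPB and AGER were lower in 26B, where SFTPC read 9.30 and SFTPB 8.20, against 11.37 to 11.59 and 9.75 to 9.98 in 10A, 14A and 14B. SFTPA1 was not, at 7.17 in 26B against 6.77 to 6.84. Leading results that rest on the fetal lung are therefore given with and without 26B and 80B.

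The change with age differed between the organs for 2498 of the 9155 genes (27.3%). It was higher in lung for 1288 (14.1%) and lower in lung for 1210 (13.2%), and the median over all genes was -0.035. In lung alone 1421 genes rose (15.5%) and 1399 fell (15.3%). In kidney alone 2188 rose (23.9%) and 1923 fell (21.0%). Opposite movers made up 1.87% of genes in the direction lung up and kidney down, and 1.64% in the direction lung down and kidney up. Most organ differences were thus not called as a reversal. A reversal needed a call in each organ, so a gene that missed a call may still have moved in opposite directions. The shares over all genes given here are the background for the counts of list members below.

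**Figure D1:**
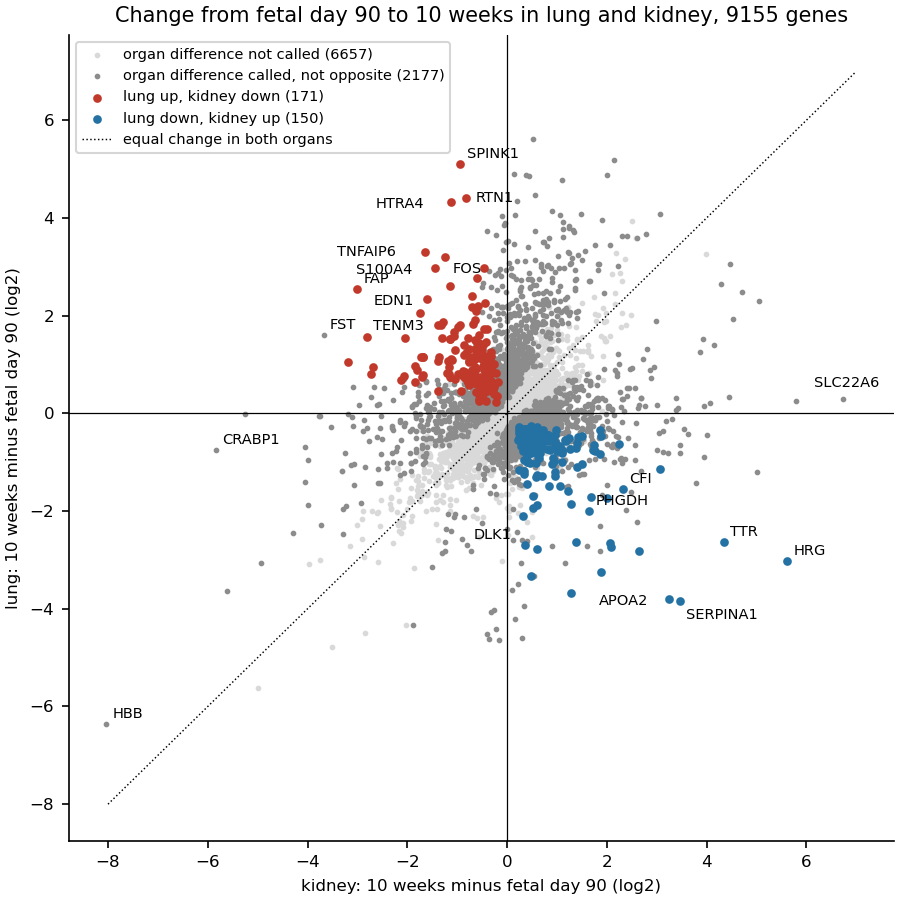
Each point is a gene, with its change from fetal day 90 to 10 weeks in kidney on the horizontal axis and in lung on the vertical axis (log2, means of 5 arrays a group). The 171 genes that rose in lung and fell in kidney are red and the 150 with the reverse are blue, and the dotted line marks an equal change in both organs. The coloured genes fill the upper left and lower right quadrants, most of them within 2 of 0 on both axes.

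Without fetal lung 26B and 80B the organ difference was called for 2679 genes (29.3%). The same number of genes, 171 (1.87%), then rose in lung and fell in kidney, of which 147 were among the first 171. In the other direction there were 187 (2.04%), of which 139 were among the first 150. A total of 24 and 11 genes dropped out of the respective directions and 24 and 48 entered. In 5 arrays a group, 97 of the 171 and 84 of the 150 had no overlap between the ages in either organ. These genes were called on the same changes, so the counts follow in part from the choice of genes. They are given as a description, without a share over all genes. Only 28 of the 171 and 20 of the 150 changed by at least 1 in each organ, so most reversals were modest in size in at least 1 organ. In the test against a doubling the adjusted p was at most 0.000427 in each organ for FAP, 0.0167 for TNFAIP6, 0.00494 for SERPINA1 and 0.0285 for PHGDH.

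Among the stromal and matrix-related genes that rose in lung and fell in kidney, FAP had the largest change in the organ that changed less. FAP read 6.18, 6.14, 5.41, 5.40 and 6.54 in fetal lung arrays 10A, 14A, 14B, 26B and 80B, and 8.91, 8.42, 8.79, 8.14 and 8.14 in lung arrays 7, 8, 10, 11 and 12 at 10 weeks. It read 7.88, 8.27, 7.87, 7.72 and 7.85 in fetal kidney arrays 10A, 14A, 19A, 26A and 80B, and 4.71, 4.05, 4.85, 5.40 and 5.53 in kidney arrays 7, 8, 9, 10 and 11 at 10 weeks. No array overlapped between the ages in either organ, and at 10 weeks every lung array lay above every kidney array, the reverse of the fetal order. FAP rose in lung by 2.55 ± 0.24 and fell by 3.01 ± 0.30 in kidney, an organ difference of 5.56 ± 0.41 (limma, adjusted p = 3.28e-11). Arrays below are given in this same order.

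TNFAIP6 binds hyaluronan and is made in inflamed and remodelling tissue. It read 5.05, 4.73, 4.66, 5.13 and 4.89 in fetal lung and 7.72, 7.90, 8.29, 8.51 and 8.53 in lung at 10 weeks. Kidney values were 5.68, 6.15, 5.92, 5.85 and 6.40 at the fetal age and 4.29, 4.02, 4.50, 4.33 and 4.63 at 10 weeks. The lung arrays lay far apart between the ages, and 26B and 80B read close to the other fetal lung arrays. TNFAIP6 rose in lung by 3.30 ± 0.23 and fell by 1.65 ± 0.17 in kidney, with an organ difference of 4.94 ± 0.30 (adjusted p = 6.8e-13). A second TNFAIP6 probe set of nearly the same mean brightness moved by 1.02 in lung and by -0.12 in kidney, so the fall in kidney rests on 1 of the 2 sets.

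CCDC3, a secreted coiled-coil protein, read 9.61, 9.46, 9.82, 8.58 and 9.25 in fetal lung and 10.61, 11.18, 10.78, 10.999 and 10.90 at 10 weeks. In kidney the fetal values were 9.20, 9.40, 9.56, 9.40 and 9.31 and those at 10 weeks 6.57, 6.83, 7.17, 8.14 and 7.95. The organs overlapped in the fetus and parted in both directions without overlap between ages. The rise in lung was 1.55 ± 0.21, and in kidney CCDC3 fell by 2.04 ± 0.35 (organ difference 3.59 ± 0.44, adjusted p = 3.23e-07). HTRA4, a secreted serine protease, had the larger rise in lung, 4.32 ± 0.33 (fetal arrays 6.49 to 8.68, arrays at 10 weeks 11.92 to 12.82), and fell by 1.12 ± 0.18 in kidney.

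The calcium-binding proteins S100A4 and S100A12 moved apart in the organs as well. S100A4, found in motile mesenchymal and immune cells, read 8.58, 8.57, 8.35, 8.45 and 8.18 in fetal lung and 11.46, 11.30, 10.80, 11.63 and 11.83 in lung at 10 weeks. Its kidney values were 11.82, 11.58, 10.91, 10.81 and 10.91 in the fetus and 9.54, 9.36, 9.90, 9.69 and 10.29 at 10 weeks. The fetal lung arrays lay within 0.4 of each other, and the ages did not overlap in either organ. S100A4 rose in lung by 2.98 ± 0.16 and fell by 1.45 ± 0.27 in kidney (organ difference 4.43 ± 0.33, adjusted p = 3.8e-11).

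S100A12, a product of neutrophils and monocytes, read 7.76, 7.47, 7.83, 9.91 and 8.87 in fetal lung and 10.38, 10.36, 10.32, 10.26 and 10.82 in lung at 10 weeks. Kidney arrays read 8.12, 7.92, 6.82, 6.62 and 9.27 at the fetal age and 6.21, 6.02, 6.25, 6.36 and 5.16 at 10 weeks. The fetal values were scattered in both organs without reaching those at 10 weeks, and 26B and 80B were the highest fetal lung arrays. The lung rise was 2.06 ± 0.35 with all arrays and 2.74 without those 2, and in kidney S100A12 fell by 1.75 ± 0.39. The granulocyte and mast cell list to which it belongs had 9 measured genes, of which 3 had a higher change in lung and none a lower one, or 5 and none without 26B and 80B. That list averaged 8.61 in 26B and 7.68 in 80B, against 6.89 to 7.10 in the other fetal lung arrays, and the part of granulocytes in the S100A12 result was not tested.

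Among signalling genes, EDN1 encodes endothelin-1, a vasoconstrictor peptide. It read 10.27, 9.73, 9.63, 7.24 and 10.15 in fetal lung and 12.30, 12.01, 11.67, 11.15 and 11.58 in lung at 10 weeks. The kidney arrays read 9.13, 8.97, 9.20, 9.36 and 9.57 at the fetal age and 7.52, 7.43, 8.32, 7.35 and 7.63 at 10 weeks. Array 26B was the low fetal lung value, and the ages did not overlap with or without it. EDN1 rose by 2.34 ± 0.46 in lung, or by 1.87 without 26B and 80B, and fell by 1.60 ± 0.18 in kidney (organ difference 3.94 ± 0.52, adjusted p = 9.44e-07). EDNRA, a receptor of endothelin, fell by 2.28 ± 0.12 in kidney and did not pass the test in lung, where its change was 0.27 ± 0.23.

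PPARG, a nuclear receptor of lipid metabolism, read 6.36, 6.07, 6.21, 5.92 and 5.36 in fetal lung and 7.48, 7.43, 7.75, 7.96 and 8.34 in lung at 10 weeks. In kidney it read 7.45, 7.62, 7.51, 7.13 and 7.25 in the fetus and 5.99, 5.49, 5.66, 6.86 and 6.33 at 10 weeks. Fetal kidney lay above fetal lung in every array, and at 10 weeks every lung array lay above every kidney array. The rise in lung was 1.81 ± 0.23, and PPARG fell by 1.33 ± 0.20 in kidney (organ difference 3.13 ± 0.32, adjusted p = 1.59e-08). Its single probe set matches several transcripts of the gene.

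TENM3 and SEMA6D encode membrane proteins of cell adhesion and axon guidance. TENM3 read 6.45, 6.76, 6.36, 5.21 and 6.60 in fetal lung and 7.63, 8.16, 8.33, 8.09 and 7.04 in lung at 10 weeks. Its kidney values were 9.01, 8.89, 9.22, 9.45 and 9.12 at the fetal age and 5.89, 6.40, 6.45, 6.73 and 6.18 at 10 weeks. The kidney ages lay more than 2 apart, and TENM3 fell by 2.81 ± 0.14 there and rose by 1.57 ± 0.29 in lung (organ difference 4.38 ± 0.33, adjusted p = 5.45e-11). Dimmer TENM3 probe sets moved by 0.33 and 0.22 in lung and by -1.09 and -0.03 in kidney.

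SEMA6D read 6.86, 7.03, 7.19, 6.40 and 6.66 in fetal lung and 8.72, 8.57, 8.64, 8.65 and 8.61 in lung at 10 weeks. Fetal kidney arrays read 7.25, 6.91, 6.94, 7.46 and 7.40 and kidney arrays at 10 weeks 5.87, 5.81, 5.97, 5.46 and 5.90. Its lung arrays at 10 weeks lay within 0.2 of each other, and the ages did not overlap in either organ. SEMA6D rose by 1.81 ± 0.13 in lung and fell by 1.39 ± 0.14 in kidney, with an organ difference of 3.20 ± 0.20 (adjusted p = 1.12e-12). A second SEMA6D probe set moved likewise, by 1.82 in lung and -1.61 in kidney.

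SCIN, the actin-severing protein scinderin, stayed lower in lung than in kidney at both ages. It read 4.44, 4.82, 3.99, 3.16 and 4.65 in fetal lung and 6.31, 5.60, 6.20, 5.74 and 4.96 in lung at 10 weeks, and 8.49 to 9.21 and 7.09 to 7.82 in kidney at the respective ages. The gap between the organs narrowed from both sides, by 1.55 ± 0.33 in lung, while SCIN fell by 1.31 ± 0.18 in kidney (adjusted p of the organ difference = 2.06e-06).

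Leaving out the 2 fetal lung arrays ended none of these reversals. Without 26B and 80B the lung rise was 2.57 for FAP, 3.38 for TNFAIP6, 1.27 for CCDC3, 2.91 for S100A4, 1.58 for PPARG, 1.32 for TENM3, 1.61 for SEMA6D and 1.34 for SCIN, and each was still an opposite mover. Of the opposite movers taken from the gene lists below, ACTC1, FZD10, BMPR2 and F3 were not opposite movers without those arrays.

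**Figure D2:**
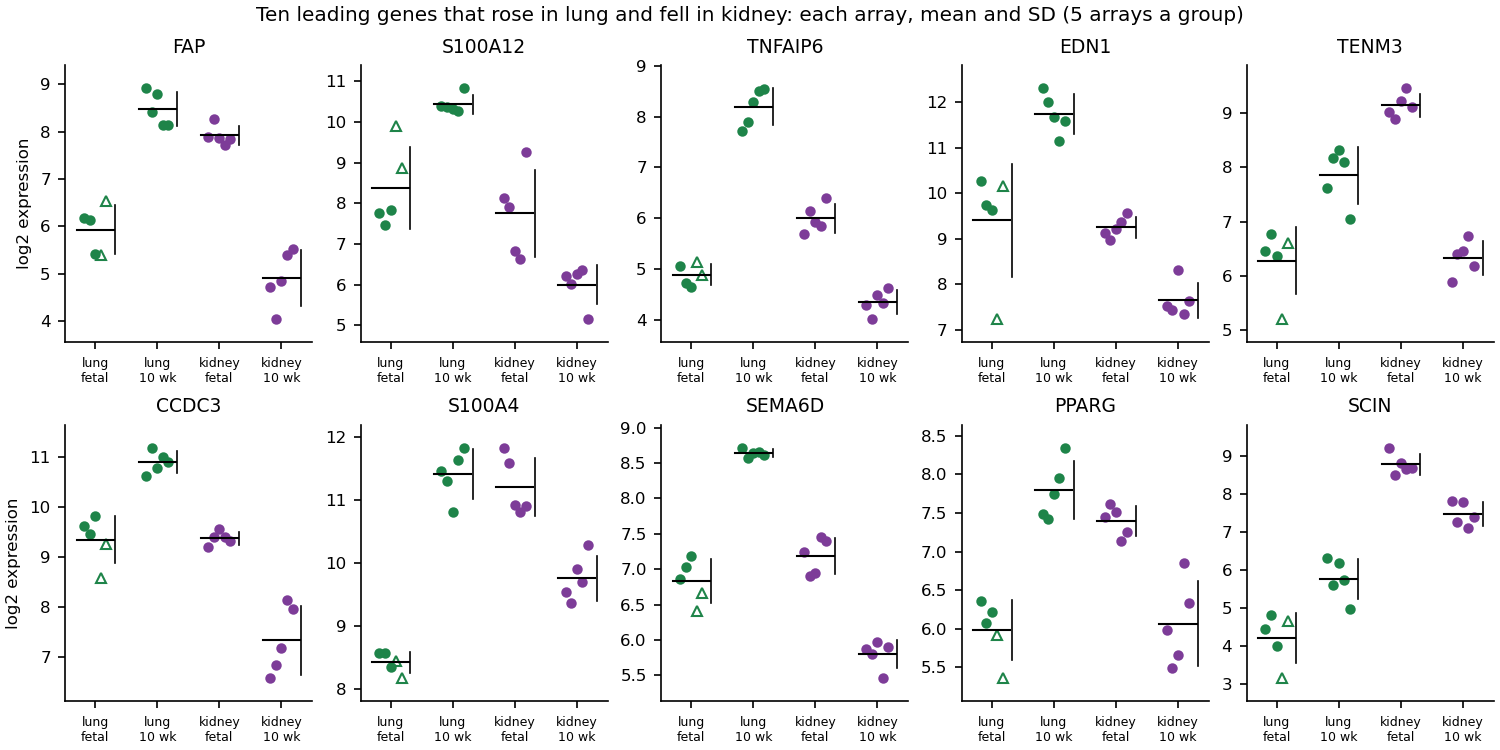
Log2 expression of the 10 leading genes that rose in lung and fell in kidney, with each array as a point (lung green, kidney purple; open triangles are fetal lung 26B and 80B), the mean as a horizontal line and the SD as a vertical line, n = 5 a group. In all 10 panels the ages do not overlap in either organ, and FAP, TNFAIP6, TENM3, S100A4 and PPARG pass from higher in kidney to higher in lung without overlap of the organs at either age.

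Of 3 further genes with large organ differences in this direction, SPINK1 and RTN1 fell in kidney with overlap of the arrays, and NPVF did not change in lung by the test. SPINK1, a trypsin inhibitor, rose by 5.10 ± 0.63 in lung (fetal arrays 4.45 to 5.13, arrays at 10 weeks 8.37 to 11.09), and fell by 0.94 ± 0.35 in kidney, where 4.86 to 7.22 and 4.35 to 5.32 overlapped. RTN1, a reticulon of the endoplasmic reticulum, rose by 4.42 ± 0.44 in lung and fell by 0.83 ± 0.16 in kidney, with overlap of the kidney arrays at 7.73 to 8.15 and 6.84 to 7.81. NPVF, the precursor of RFamide neuropeptides, lay at 3.94 to 4.41 and 3.80 to 4.35 in lung and fell by 5.25 ± 0.23 in kidney (fetal arrays 8.31 to 9.72, arrays at 10 weeks 3.72 to 4.08). The organ difference of NPVF, 5.24 ± 0.27, rests on its kidney change (adjusted p in lung = 0.973).

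FST depended on the 2 fetal lung arrays. Follistatin, its product, binds activins. It read 6.87, 6.30, 6.64, 11.39 and 9.02 in fetal lung and 9.69, 9.04, 9.87, 10.18 and 9.47 in lung at 10 weeks. Kidney arrays read 9.18, 9.66, 9.84, 9.45 and 9.94 in the fetus and 6.49, 5.10, 5.74, 5.93 and 6.42 at 10 weeks, without overlap. Array 26B lay above every lung array at 10 weeks, and the lung change of 1.61 ± 0.72 did not pass the test (adjusted p = 0.109). Without 26B and 80B the lung rise was 3.05 (adjusted p = 8.47e-08), and FST was then an opposite mover. F5, coagulation factor V, chosen after its values were seen, also read high in those arrays, with 4.84, 5.40, 5.27, 10.40 and 7.40 in fetal lung and 6.86 to 7.93 in lung at 10 weeks. Its lung change was 0.71 ± 0.79 with all arrays and 2.20 without 26B and 80B (adjusted p = 0.531 and 2.26e-05), and F5 fell by 2.07 ± 0.18 in kidney.

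Genes of the fibrillar matrix differed between the organs mainly through falls in kidney. Of 26 measured, 19 had a higher change in lung and none a lower one (medians -0.02 in lung and -0.99 in kidney, organ difference 1.25). In kidney 21 of the 26 fell and 1 rose, and in lung 5 fell and 4 rose. FN1, fibronectin, fell by 2.98 ± 0.14 in kidney (fetal arrays 11.51 to 11.89, arrays at 10 weeks 8.33 to 9.15), and its lung values were 11.996 to 12.20 and 11.90 to 12.47. A dimmer FN1 probe set moved by about the same amount in both organs, -1.34 in lung and -1.45 in kidney. POSTN, periostin, fell by 3.76 ± 0.13 in kidney and changed by -0.05 ± 0.29 in lung, which did not pass. VCAN, the proteoglycan versican, fell by 3.98 ± 0.26 in kidney and less in lung, where it fell by 0.95 ± 0.23. Reversal was limited to DCN, decorin, which rose in lung by 0.65 ± 0.22 and fell by 0.77 ± 0.16 in kidney, and COL12A1, a collagen that coats fibrils, with 1.001 ± 0.29 and -0.27. Another COL12A1 probe set, nearly as bright, moved by 1.25 in lung and 0.19 in kidney, so the fall of COL12A1 in kidney rests on 1 of its 3 sets. Array 26B was the lowest fetal lung array for DCN and COL12A1, which adds to the rises given for them. DCN read 10.50 in 26B against 11.57 to 11.87 in the other fetal lung arrays, and COL12A1 read 7.70 against 9.42 to 9.71. With 26B and 80B left out, 18 of the list had a higher change in lung and 1 a lower one, and DCN and COL12A1 were still opposite movers.

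The Wnt list held the most opposite movers of the lists in this direction, 5 of 19 measured genes, against 1.87% of all genes. All 5 rose in lung and fell in kidney, and their rise in lung is given first and their fall in kidney next. Among receptors, FZD4 rose by 1.43 ± 0.14 and fell by 0.60 ± 0.12, and FZD10 rose by 0.65 ± 0.21 and fell by 1.85 ± 0.13. Among secreted modulators, DKK3 rose by 0.79 ± 0.14 and fell by 1.68 ± 0.17, and RSPO1, an activator of the pathway, rose by 1.12 ± 0.19 and fell by 0.52 ± 0.14. TCF7, a transcription factor at the end of the pathway, rose by 1.30 ± 0.20 and fell by 1.04 ± 0.11. Array 26B was its lowest fetal lung array, at 8.28 against 9.03 to 9.53, which adds to the rise. Across the list 14 of 19 genes fell in kidney, against 21.0% of all genes, and none rose. In lung 5 rose and 3 fell. The organ difference was higher in lung for 10 and lower for 1, against 14.1% and 13.2% of all genes. Its median was 0.96, or 0.56 without 26B and 80B. FZD10 did not pass in lung without those arrays (adjusted p = 0.0829), and 5 genes of the list were then opposite movers.

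Of 9 Notch genes measured, HEY1, a target of the pathway, and LFNG, a glycosyltransferase that modifies the receptors, were opposite movers. HEY1 rose by 0.82 ± 0.16 in lung and fell by 0.41 ± 0.14 in kidney, and LFNG rose by 0.66 ± 0.16 and fell by 0.32 ± 0.11. LFNG read 6.10 in fetal lung 26B, against 6.48 to 6.94 in the other fetal lung arrays. The ligand DLL4 rose in lung by 1.36 ± 0.24, and its kidney change of 0.08 ± 0.10 did not pass (adjusted p = 0.544). In the retinoid list, RXRG, a nuclear receptor, rose by 1.08 ± 0.25 and fell by 1.19 ± 0.18, and RARRES1, a retinoid-induced gene, rose by 1.24 ± 0.19 and fell by 0.81 ± 0.18. The BMP and TGF-beta list of 24 had 8 higher and 1 lower, or 6 and 3 without 26B and 80B, when the median went from 0.19 to -0.01. BMPR2 was an opposite mover (0.45 and -0.42) that was lost without 26B and 80B (adjusted p in lung = 0.277).

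Of 21 glucocorticoid and stress genes, 7 had a higher and 3 a lower change in lung, against 14.1% and 13.2% of all genes. Without 26B and 80B there were 8 and 2. In this list 3 immediate early genes, which answer quickly to stimuli, reversed. FOS read 8.41 to 11.83 in fetal lung and 12.46 to 13.21 in lung at 10 weeks, and 8.50 to 10.81 and 7.60 to 8.94 in kidney, where the ages overlapped. It rose by 3.21 ± 0.46 in lung and fell by 1.25 ± 0.36 in kidney (organ difference 4.46 ± 0.61, adjusted p = 2.15e-06). EGR1 rose by 1.84 ± 0.20 and fell by 0.68 ± 0.13, and DUSP1, a phosphatase of the same response, rose by 1.40 ± 0.14 and fell by 0.48 ± 0.15. JUNB rose in lung by 2.17 ± 0.19, and its kidney change of 0.22 ± 0.12 did not pass. A dimmer FOS probe set moved by 2.23 and -0.27, and a dim EGR1 set by 0.33 and 0.18.

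Immune genes changed more in lung, and few reversed. Of 19 macrophage and monocyte genes, 15 had a higher change in lung and none a lower one (median 1.64), and all 19 rose in lung. The list mean was 7.01 to 8.02 in fetal lung and 8.88 to 9.27 in lung at 10 weeks, and 6.74 to 7.0 and 7.14 to 7.40 in kidney. Of them, CD68, a lysosomal protein of macrophages, was an opposite mover, with a rise of 1.55 ± 0.19 in lung, and it fell by 0.78 ± 0.13 in kidney. Of 22 lymphocyte genes 13 were higher and none lower, and CD247, the zeta chain of the T cell receptor, reversed (0.96 in lung, -1.17 in kidney). CD247 read 8.63 in fetal lung 26B, against 9.72 to 9.84 in the other fetal lung arrays, which adds to the rise. In whole organs, fewer cells of a type and less RNA per cell cannot be told apart, here and in all results.

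Among lung cell markers, the alveolar type I and capillary list had 11 of 16 higher and none lower, or 9 and none without 26B and 80B. In kidney 7 of the 16 rose and 2 fell, and those 2 were PDPN and CAV1. PDPN, podoplanin of type I cells, rose by 0.91 ± 0.23 in lung and fell by 0.62 ± 0.13 in kidney. CAV1, caveolin-1, rose by 1.18 ± 0.34 and fell by 0.45 ± 0.16. CAV1 arrays overlapped between the ages in both organs. Of 17 type II and surfactant genes 9 were higher and none lower, led by SFTPD, surfactant protein D, with 3.46 ± 0.16 in lung and 0.14 ± 0.15 in kidney, and none reversed. Leaving out 26B and 80B, 8 were higher and none lower, the median went from 0.81 to 0.43, and 1 gene was an opposite mover. TPPP3, a microtubule protein of ciliated cells, rose by 1.91 ± 0.33 and fell by 0.64 ± 0.24, and EMCN, endomucin of endothelium, rose by 0.85 ± 0.26 and fell by 0.31 ± 0.08. Markers of other cell types also reversed in this direction. They included AQP4, a water channel (1.15 and -0.71), and ANPEP, an aminopeptidase of the tubule brush border (0.84 and -0.66). TRPC6, a cation channel of podocytes, did so too (1.53 and -1.14). Array 26B was the lowest fetal lung array for PDPN, CAV1, TPPP3, EMCN, AQP4, ANPEP and TRPC6, which adds to the rises given for them. In 26B PDPN read 10.29, against 11.55 to 11.72 in the other fetal lung arrays. CAV1 read 9.32 against 10.99 to 11.23, and TRPC6 read 6.18 against 8.48 to 8.77. ACTC1, the cardiac form of actin, rose by 1.05 ± 0.34 in lung and fell by 3.18 ± 0.19 in kidney, and its lung change of 1.03 did not pass without 26B and 80B (adjusted p = 0.0609).

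In the other direction, plasma proteins of the liver made up the head of the list with all arrays. The order changed without 26B and 80B, ranked on the change in the organ that changed less, with no rule on overlap. The 10 leading genes were then SERPINA1, APOA2, PHGDH, SPP1, NOX4, SVOP, MT1A, APOB, CFI and CBS. TTR, SERPINC1, F2, UPP2 and SLC16A1 were not among them. SERPINA1, which inhibits neutrophil elastase, read 10.44, 9.72, 9.21, 12.20 and 12.71 in fetal lung and 6.64, 7.02, 7.77, 6.62 and 7.07 in lung at 10 weeks. Kidney arrays gave 8.68, 7.19, 9.59, 8.82 and 8.57 in the fetus and 11.88, 11.91, 12.28, 12.13 and 12.02 at 10 weeks. Fetal lung was above lung at 10 weeks in every array, also in 10A, 14A and 14B alone. SERPINA1 fell by 3.84 ± 0.59 in lung and rose by 3.47 ± 0.29 in kidney (organ difference -7.31 ± 0.69, adjusted p = 3.69e-09). Without 26B and 80B the lung change was -2.77 (adjusted p = 8.84e-05), and a second SERPINA1 probe set moved by -3.51 and 3.34.

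APOA2, an apolipoprotein of high-density lipoprotein, read 8.88, 8.001, 7.49, 13.13 and 12.44 in fetal lung and 6.17, 6.03, 6.53, 5.66 and 6.54 in lung at 10 weeks. Kidney values were 9.29, 8.03, 7.75, 8.68 and 9.53 at the fetal age and 12.24, 11.43, 11.94, 12.33 and 11.63 at 10 weeks. Array 26B and array 80B lay more than 3 above the other fetal lung arrays, which still lay above those at 10 weeks. APOA2 fell by 3.80 ± 0.92 in lung with all arrays, and its change was -1.94 without those 2 (adjusted p = 0.00551 and 0.00391). In kidney it rose by 3.25 ± 0.45.

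TTR, the thyroxine and retinol carrier transthyretin, read 7.74, 7.22, 6.86, 11.79 and 10.87 in fetal lung and 6.80, 6.27, 5.77, 5.97 and 6.46 in lung at 10 weeks. In kidney it read 6.72, 6.59, 6.000, 6.30 and 6.71 at the fetal age and 10.46, 11.05, 11.15, 10.93 and 10.46 at 10 weeks. Fetal lung lay above fetal kidney in every array, and at 10 weeks every kidney array lay more than 3 above every lung array. TTR rose in kidney by 4.35 ± 0.17 (adjusted p = 5.68e-12), and its lung change was -2.64 ± 0.78, or -1.02 without 26B and 80B. HRG, histidine-rich glycoprotein, rose still more in kidney, by 5.62 ± 0.26 (fetal arrays 5.21 to 5.82, arrays at 10 weeks 10.04 to 11.77). In lung HRG read 6.19, 5.83, 5.17, 12.71 and 10.49 at the fetal age and 4.83 to 5.50 at 10 weeks, and the ages overlapped. Its lung change of -3.02 ± 1.10 had an adjusted p of 0.0489, and 0.0278 with a change of -0.67 without the 2 arrays.

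SERPINC1 and F2 encode antithrombin and prothrombin, an inhibitor and its target in coagulation. SERPINC1 read 8.54, 7.72, 7.30, 12.81 and 12.09 in fetal lung and 7.09, 6.92, 6.61, 6.99 and 7.20 in lung at 10 weeks, and 8.86 to 9.62 and 11.01 to 11.46 in kidney. F2 read 7.37, 7.20, 6.63, 12.87 and 10.80 in fetal lung and 6.46, 6.24, 6.55, 6.40 and 5.92 at 10 weeks, and 9.82 to 10.41 and 11.92 to 12.32 in kidney. Both rose in kidney without overlap, by 2.09 ± 0.23 and 2.07 ± 0.11. Their lung changes were -2.73 ± 0.86 and -2.66 ± 0.91 with all arrays and -0.89 and -0.75 without 26B and 80B, and the smaller values also passed (adjusted p = 0.0219 and 0.0235). A dim F2 probe set moved by 0.14 in lung and 0.24 in kidney.

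Across the liver list, 17 of 28 measured genes had a lower change in lung and none a higher one, with a median organ difference of -3.41. Without 26B and 80B there were 16 lower and 1 higher, and the median was -1.64. In lung 18 fell and none rose, and in kidney 10 rose and 3 fell. The 8 opposite movers were SERPINA1, APOA2, TTR, SERPINC1, F2, HRG, APOB and ITIH3, and 8 genes were opposite movers without the 2 arrays. APOB, the structural protein of low-density lipoprotein, had a lung change of -3.67 ± 1.03 with all arrays and -1.47 without them, and rose by 1.28 ± 0.40 in kidney. Arrays 26B and 80B were the 2 highest fetal lung arrays for 30% of all 150 genes of this direction. That compares with 16.1% over all genes and 10.5% among the 171 of the other direction. They were the 2 lowest for 8.67% of the 150 and 29.2% of the 171, against 23.7% over all genes. These shares follow in part from the choice of genes, as the 150 were called on high fetal lung values and the 171 on low ones. The median lung change of the 150 was -0.68 with all arrays and -0.62 without 26B and 80B. For the 171 it was 0.92 and 0.81. The part of liver or blood-forming cells in the lung changes was not tested. The rises in kidney rest on other arrays.

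Other leading genes in this direction were PHGDH, CBS, UPP2, SLC16A1 and MT1A. PHGDH, CBS and SLC16A1 kept a lung change beyond 1 in size without 26B and 80B, as did MT1A, and UPP2 did not. PHGDH starts the synthesis of serine from a glycolytic intermediate. It read 8.91, 8.60, 8.73, 10.04 and 8.43 in fetal lung and 6.45, 7.25, 7.38, 6.68 and 6.92 in lung at 10 weeks. Kidney values were 8.63, 8.82, 8.64, 8.49 and 8.80 at the fetal age and 9.92, 10.24, 10.38, 10.75 and 10.30 at 10 weeks. Fetal levels of the organs overlapped, and at 10 weeks no lung array came within 2 of a kidney array. PHGDH fell by 2.01 ± 0.27 in lung and rose by 1.64 ± 0.14 in kidney (organ difference -3.65 ± 0.31, adjusted p = 6.06e-10), and its lung change was -1.81 without 26B and 80B.

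CBS, which feeds homocysteine into cysteine synthesis, read 6.72, 7.08, 6.90, 8.92 and 7.31 in fetal lung and 5.34, 5.63, 5.80, 5.73 and 5.88 in lung at 10 weeks. Its kidney values were 7.34, 7.29, 7.34, 7.39 and 7.51 in the fetus and 8.86, 9.28, 9.08, 9.22 and 8.81 at 10 weeks. Array 26B was the only fetal lung array above 8. CBS fell by 1.71 ± 0.33 in lung, or changed by -1.22 without 26B and 80B, and rose by 1.68 ± 0.10 in kidney (adjusted p of the organ difference = 3.14e-08).

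SLC16A1, a carrier of lactate and other monocarboxylates, read 9.65, 9.30, 9.39, 11.80 and 9.96 in fetal lung and 8.06, 7.97, 8.09, 8.63 and 8.70 in lung at 10 weeks. The kidney arrays read 9.54, 9.74, 9.82, 9.58 and 9.80 at the fetal age and 11.88, 11.75, 11.60, 11.77 and 11.53 at 10 weeks. The ages did not overlap in either organ. SLC16A1 fell by 1.73 ± 0.37 in lung, or changed by -1.16 without 26B and 80B, and rose by 2.01 ± 0.15 in kidney (adjusted p of the organ difference = 5.06e-08). UPP2, which splits uridine, was bright in kidney at both ages, 9.56 to 10.13 and 12.36 to 12.77, and rose there by 2.64 ± 0.10. In fetal lung UPP2 read 6.14, 5.39, 5.56, 12.02 and 9.83, against 4.78 to 5.13 at 10 weeks. Its lung change was -2.81 ± 0.99 with all arrays and -0.72 without 26B and 80B (adjusted p = 0.042 and 0.0176). MT1A, a metal-binding metallothionein of a family with near-identical members that probes may not separate, read 8.76, 7.87, 7.47, 13.12 and 12.40 in fetal lung and 6.27 to 7.11 at 10 weeks. It rose by 1.89 ± 0.37 in kidney, and its lung change was -3.24 ± 0.93 with all arrays and -1.35 without 26B and 80B.

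**Figure D3:**
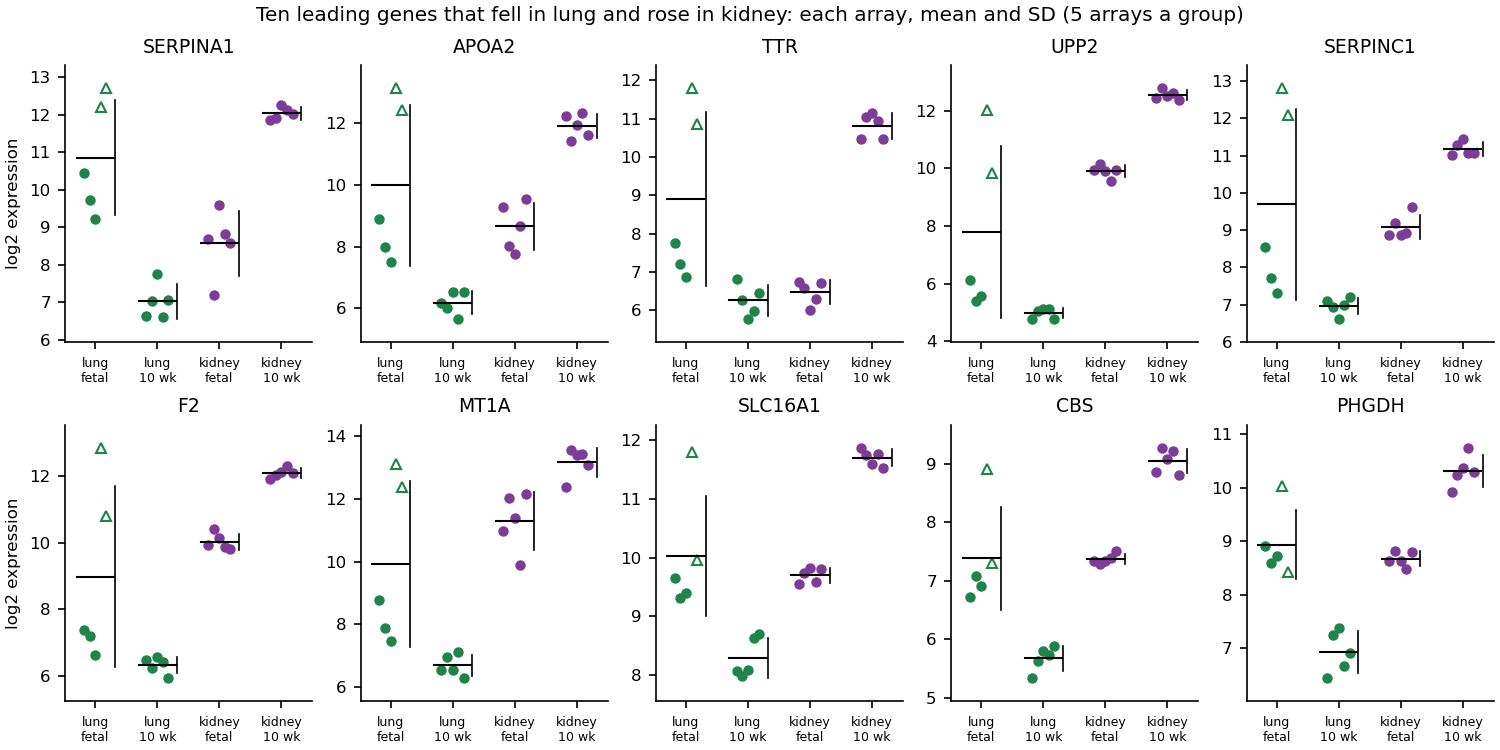
Log2 expression of the 10 leading genes that fell in lung and rose in kidney, drawn as each array with the mean and SD of 5 arrays a group (lung green, kidney purple; open triangles are fetal lung 26B and 80B). The triangles lie far above the other fetal lung arrays for APOA2, TTR, UPP2, SERPINC1, F2 and MT1A, and for PHGDH the triangle of 80B is the lowest fetal lung value.

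CFI, the protease that inactivates complement C3b, reversed with a lung change of -1.26 also without the 2 arrays (adjusted p = 7.71e-05). It fell by 1.55 ± 0.22 in lung (fetal arrays 10.87 to 12.01, arrays at 10 weeks 9.42 to 9.91), and rose by 2.33 ± 0.16 in kidney (fetal arrays 8.71 to 9.56, arrays at 10 weeks 11.07 to 11.68). Its organ difference was -3.88 ± 0.28 (adjusted p = 1.86e-11). The gap of lung minus kidney was 2.19 in the fetus, -1.69 at 10 weeks and -1.28 in the adult. PLAT, the tissue plasminogen activator, fell by 0.72 ± 0.16 in lung and rose by 0.68 ± 0.17 in kidney. In the same list of 29 complement, coagulation and acute phase genes, 10 had a higher and 8 a lower change in lung (median 0.02). Leaving out 26B and 80B gave 13 and 5 (median 0.37). F3, tissue factor, was an opposite mover the other way (0.72 and -0.85), lost without 26B and 80B.

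Opposite movers that entered in this direction without 26B and 80B included NOX4 and SPP1, both chosen after their values were seen. NOX4, an oxidase that makes hydrogen peroxide in tubule cells, read 6.91, 6.51, 6.54, 4.07 and 6.37 in fetal lung and 5.64, 4.54, 4.99, 5.38 and 5.32 in lung at 10 weeks. It rose by 2.28 ± 0.09 in kidney, and its lung change was -0.91 ± 0.42 with all arrays and -1.48 without the 2 (adjusted p = 0.114 and 0.000136). Array 26B, at 4.07, lay below every lung array at 10 weeks. SPP1, osteopontin, read 10.59, 10.92, 9.69, 7.41 and 10.48 in fetal lung and 8.56, 7.68, 9.85, 9.39 and 8.90 at 10 weeks, with a lung change of -0.94 ± 0.62 (adjusted p = 0.273), or -1.52 without 26B and 80B (adjusted p = 0.0315) and a kidney rise of 2.27 ± 0.14.

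Proximal tubule genes had a lower change in lung mostly through rises in kidney. Of 14 proximal tubule transporters, 11 rose in kidney and none fell, and in lung 2 rose and 1 fell. The organ difference was lower for 10 and higher for none (median changes -0.20 in lung and 1.77 in kidney). SLC22A6 and SLC22A8, which take up organic anions from blood, rose in kidney by 6.74 ± 0.23 and 5.80 ± 0.25. SLC22A6 read 4.58, 4.86, 5.26, 5.002 and 5.03 in fetal kidney and 11.91, 11.21, 11.81, 11.75 and 11.72 at 10 weeks, and 4.47 to 4.74 and 4.53 to 5.31 in lung. The fetal kidney arrays thus read close to the lung arrays, and the lung change of 0.29 ± 0.13 did not pass. The only reversal in this list was SLC9A3, a sodium-proton exchanger, which fell by 0.35 ± 0.12 in lung and rose by 1.86 ± 0.11 in kidney. Dimmer SLC9A3 probe sets moved by 0.22 and 0.17 in lung and by 0.15 and 0.46 in kidney.

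Of 17 proximal tubule enzymes, 10 were lower and 2 higher, or 9 and 3 without 26B and 80B. KHK, which phosphorylates fructose, rose by 4.06 ± 0.24 in kidney with 0.21 ± 0.12 in lung, and PCK1, of glucose synthesis, rose by 3.31 ± 0.14 with -0.11 ± 0.47 in lung. The 19 genes of the thick ascending limb, distal tubule and collecting duct had 4 higher and 4 lower organ differences. Over all genes the shares were 14.1% and 13.2%. Without 26B and 80B the list had 5 and 4, and its median went from -0.19 to 0.16. Among these 19 genes HSD11B2, which inactivates cortisol in the collecting duct, fell by 0.92 ± 0.21 in lung and rose by 0.93 ± 0.08 in kidney. CITED1, a transcriptional regulator found in nephron progenitors, rose in kidney by 1.26 ± 0.17 and fell by 0.72 ± 0.21 in lung. Of the 11 genes of the kidney development list, 7 fell and 1 rose in kidney, and the organ difference was higher for 5 and lower for 1.

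Genes of fatty acid oxidation had a lower change in lung for 22 of 28 measured members and a higher one for 1 (median -0.98). In kidney 24 rose and 1 fell, and in lung 1 rose and 4 fell. DECR1 and ECI1, enzymes for unsaturated fatty acids, and ETFA, which passes electrons to the respiratory chain, were opposite movers. ECI1 fell by 0.64 ± 0.16 in lung (fetal arrays 7.23 to 8.13, arrays at 10 weeks 6.64 to 7.06), and rose by 1.75 ± 0.15 in kidney (fetal arrays 7.24 to 7.52, arrays at 10 weeks 8.65 to 9.58). DECR1 fell by 0.44 ± 0.10 and rose by 0.96 ± 0.08, and ETFA fell by 0.998 ± 0.17 and rose by 0.40 ± 0.10. Without 26B and 80B 20 genes of the list were lower and 2 higher, and 5 were opposite movers. Of 34 genes of oxidative phosphorylation, 14 were lower and none higher (median -0.34), or 10 and none without 26B and 80B, and UQCRFS1, the iron-sulphur subunit of complex III, reversed (-0.53 and 0.34).

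**Figure D4:**
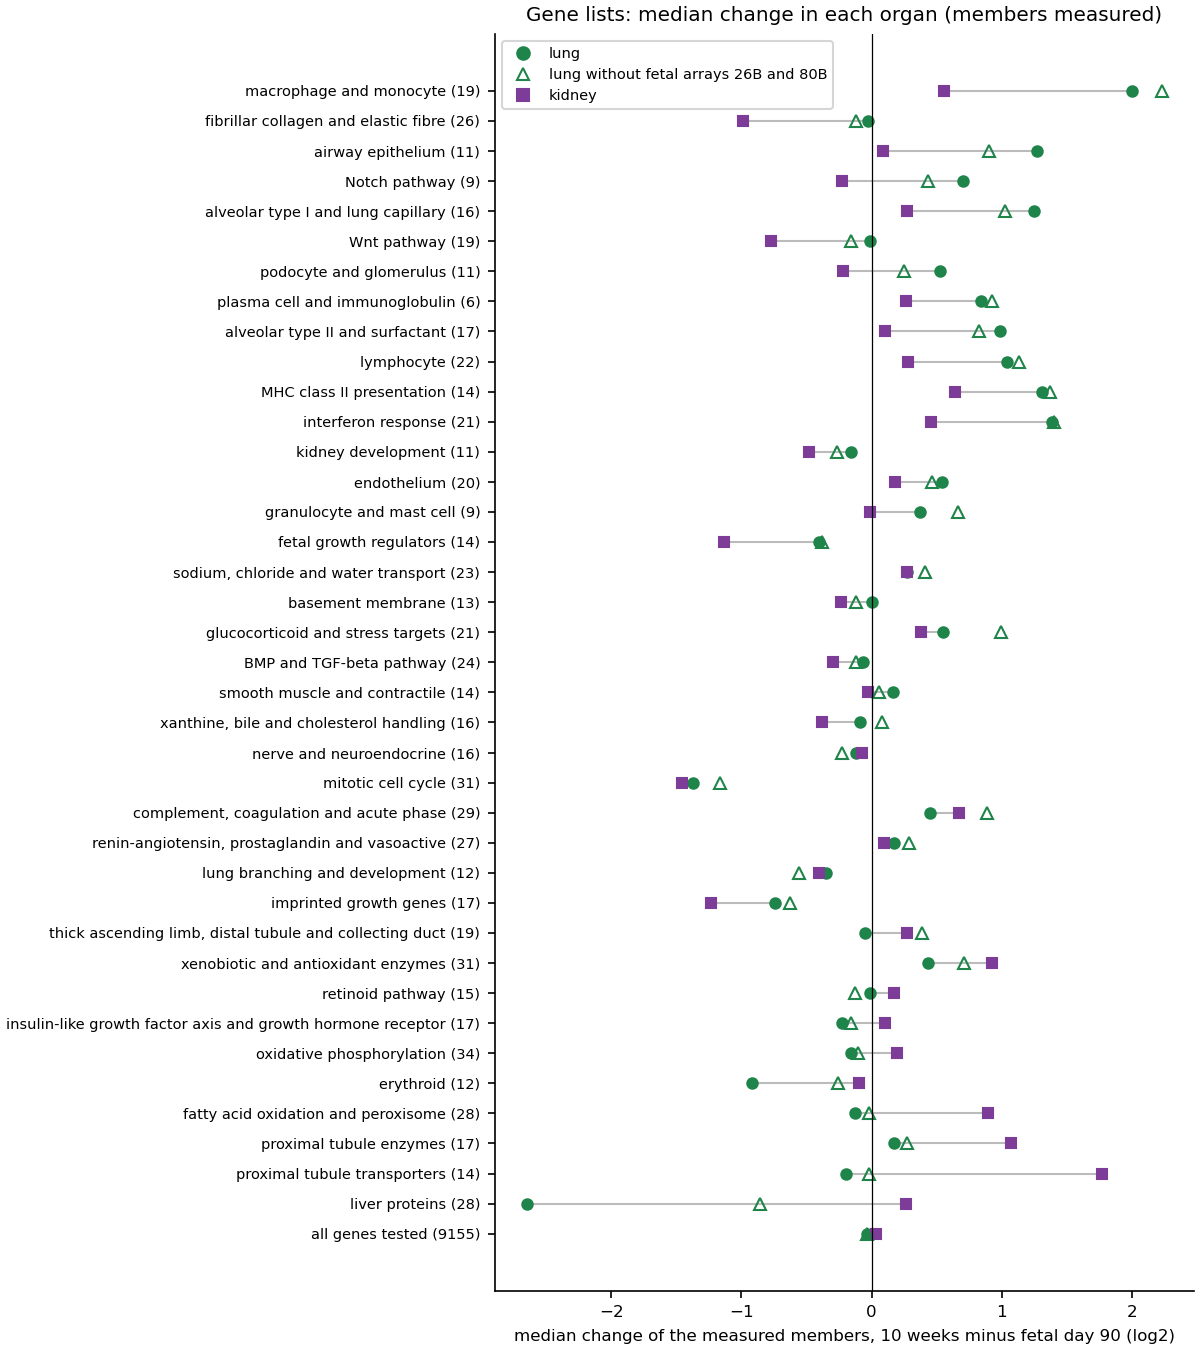
Median change from fetal day 90 to 10 weeks (log2) of the measured members of each gene list in lung (green circles), in lung without fetal arrays 26B and 80B (open triangles) and in kidney (purple squares), with the number of measured genes in brackets and lists of at least 5 measured genes shown. Liver proteins have the widest shift between circle and triangle, and the mitotic list falls by about the same amount in both organs.

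No opposite mover was found in the growth and proliferation lists. None of 31 mitotic genes, 17 imprinted growth genes or 14 fetal growth regulators was an opposite mover in either direction, where the shares over all genes were 1.87% and 1.64%. Counts of 0 in lists of this size are close to those shares. Of the mitotic genes 28 fell in lung and 30 in kidney, and the organ difference was higher for 1 and lower for 1 (median 0.03), or 4 and 1 without 26B and 80B. IGF2, the fetal growth factor, fell in both organs and its organ difference was -0.37 ± 0.42 (adjusted p = 0.583). The organ differences of PEG3, -0.10 ± 0.46, PLAGL1, 0.51 ± 0.21, IGF2BP3, 0.58 ± 0.41, CDK1, 0.61 ± 0.33, and EZH2, 0.35 ± 0.26, did not pass either, which does not show that the changes were equal. Other growth genes fell in both organs by different amounts. MEST, a gene of growing mesoderm, fell more in kidney (organ difference 2.11 ± 0.27, adjusted p = 6.2e-07), and DLK1, a Notch-related protein, and IGF2BP1, an RNA-binding protein of the fetus, fell more in lung (-1.90 ± 0.35 and -1.65 ± 0.23, adjusted p = 0.000114 and 1.94e-06). A second, dimmer DLK1 probe set moved by -2.92 in lung and -2.12 in kidney, a smaller difference between the organs. A second MEST probe set with similar brightness moved less, by -0.33 in lung and -1.10 in kidney. H19 was not among the genes tested.

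The reversals set the organs apart. The median size of the gap between them grew from 0.55 in the fetus to 1.54 at 10 weeks among the 171 genes and from 0.34 to 1.497 among the 150. Among the 171 genes that rose in lung and fell in kidney, the median signed gap, lung minus kidney, was -0.13 in the fetus and 1.52 at 10 weeks. Among the 150 of the other direction it went from -0.15 to -1.50. The gap changed sign in 96 of the 171 and 51 of the 150, and widened without a change of sign in 70 and 96. For 35 and 11 genes the arrays of the organs did not overlap at either age and the order was reversed, among them TTR, FAP, TNFAIP6, TENM3, CFI, S100A4 and PPARG. HOXD10, a patterning gene of the posterior body that was much brighter in kidney (12.44 in the fetus, against 4.61 in lung), is the isolated point at the far left of the plot of gaps. It was picked out after its values were seen. These gaps follow in part from how the genes were chosen and are given as a description.

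**Figure D5:**
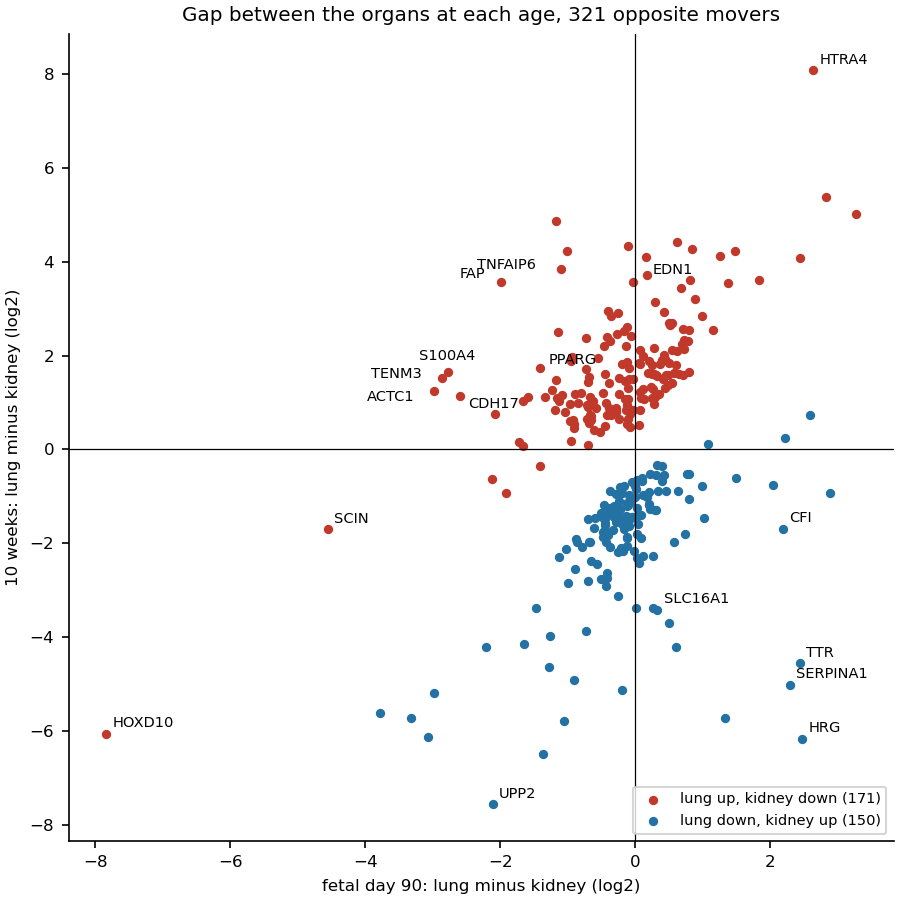
Gap between the organs (lung minus kidney, log2, means of 5 arrays) at fetal day 90 on the horizontal axis and at 10 weeks on the vertical axis for the 321 opposite movers. Genes that rose in lung and fell in kidney (red) lie mostly above 0 at 10 weeks and the reverse group (blue) below it; points in the upper left and lower right quadrants changed sign.

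The adult arrays entered the choice of probe set and the estimate of the spread, but not the changes that made a gene an opposite mover. In them the median gap was 1.48 for the 171 genes and -1.38 for the 150. It had the sign of the organ difference in 164 of 171 and 147 of 150 genes, where 166 and 147 had it at 10 weeks. All 5 adult lung arrays lay above all 5 adult kidney arrays for 147 of the 171 (86.0%), against 23.4% of all genes. All 5 lay below for 134 of the 150 (89.3%), against 18.7% of all genes. No test was made of these shares. FAP stood at 8.47 ± 0.36 (SD, n = 5) in adult lung and 5.66 ± 0.70 in adult kidney, close to 8.48 ± 0.36 and 4.91 ± 0.59 at 10 weeks. PHGDH stood at 7.14 ± 0.27 and 10.74 ± 0.24, against 6.94 ± 0.39 and 10.32 ± 0.30. S100A4 read 11.41 ± 0.39 in lung at 10 weeks and 12.67 ± 0.13 in adult lung, and SERPINA1 read 7.02 ± 0.47 and 8.10 ± 0.79 in lung at the respective ages.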

How the data were processed

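The deposited table holds log2 expression values, and the submitters' processing notes name RMA (background correction, quantile normalization and probe summary) and Partek. Their versions and settings are not given in the sources used here. Of 24128 probe sets, 13318 carried 1 gene symbol, 86 several and 10724 none, and 112 were controls. Probe sets with several symbols or none were left out, and per gene the set with the highest mean over 30 arrays was kept, where 2913 of 9155 genes had more than 1. No further normalization or filter on dim genes was applied, and no detection calls were used. The precision is limited by 5 arrays a group.

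The organ difference was fitted with limma 3.58.1 (R 4.3.3) over 30 arrays in 6 groups, and the change in each organ over that organ's 15 arrays, with moderated two-sided tests and Benjamini-Hochberg adjustment over 9155 genes. The scripts were tested on simulated data. The genes named were the 10 per direction with the largest change in the organ that changed less, among those without overlap of the ages in either organ, the 6 largest organ differences per direction without overlap in at least 1 organ, per list the 4 called genes of lowest adjusted p, every opposite mover of a list, and a set of growth genes. Marker genes and genes said to be chosen later are exceptions. The members and the 38 gene lists were chosen with earlier results of these data known. Alternatives were another normalization, gene summary, filter, weighting, threshold and array set, leaving out 1 array at a time, and a block for the number in the titles. Sequences and coordinates were not used here. Figures were drawn with matplotlib 3.10.9.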

Additional observations from a re-analysis of the deposited data

Results flagged for a closer look

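Single arrays stood far from the other 4 of their group in 11 of 112 combinations of a leading gene and a group, over 28 genes. Chance alone gives about 1 in 20. Fetal lung 26B was that array for EDN1 (7.24) and TENM3 (5.21), where it was low, and for SLC16A1 (11.80) and CBS (8.92), where it was high. Fetal lung 80B stood apart for NPVF (4.41). In lung at 10 weeks, array 12 was high for S100A12 (10.82). In kidney at 10 weeks, array 11 was low for S100A12 (5.16) and stood apart for RTN1 (7.81), array 9 was high for EDN1 (8.32), array 7 was low for HRG (10.04) and array 8 was low for SLC22A6 (11.21).

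The change with age differed between the organs by the test of the difference itself for 2498 genes, of which 171 rose in lung and fell in kidney and 150 did the reverse. Among the leading genes of the first direction the organ difference was 5.56 for FAP, 4.94 for TNFAIP6, 4.43 for S100A4, 4.38 for TENM3, 3.94 for EDN1, 3.81 for S100A12, 3.59 for CCDC3, 3.20 for SEMA6D, 3.13 for PPARG and 2.85 for SCIN. In the second it was -7.31 for SERPINA1, -7.06 for APOA2, -6.99 for TTR, -5.45 for UPP2, -5.13 for MT1A, -4.82 for SERPINC1, -4.73 for F2, -3.74 for SLC16A1, -3.65 for PHGDH and -3.39 for CBS.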

How the results depend on the processing

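With array quality weights, which gave fetal lung 26B a weight of 0.0772 and 80B 0.502, the organ difference was called for 3661 genes. It was higher in lung for 1717 and lower for 1944, and 262 and 298 genes moved in opposite directions. A test against a doubling left 367 calls, 216 higher and 151 lower in lung, and 2 and 2 opposite movers. Requiring a measured change of at least 1 in each organ left 28 and 20. Leaving out 1 array at a time gave 2332 to 2656 calls, 1196 to 1350 higher and 1087 to 1316 lower, with 144 to 189 and 122 to 176 opposite movers. The organ difference turned to -0.55 for HBG and -0.81 for HBB without probe sets that match several transcripts, and to 0.21 for CHGA with the mean of all probe sets. In the first setting HBB was read through a dimmer probe set that moved by -1.58 in lung and -0.76 in kidney. HBG was read through a dimmer set that moved by -1.83 and -1.27. The CHGA sets moved by -0.55 and -1.65 in lung and by 0.12 and -2.75 in kidney. Why the sets of a gene differ was not tested. Centring the arrays on their medians moved the median organ difference from -0.035 to -0.063. Without fetal lung 26B and 80B the organ differences of CCND2, IGFBP4, COL4A3 and HBB no longer passed.

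Numbers, with their letters where given, were shared by 7 pairs of lung and kidney arrays. Their deviations from the group means correlated at 0.0761 to 0.250, with 6 over 0.1. Whether the arrays of a pair came from the same animal was not established, and the main fit took them as unpaired. With the number as a random replicate block, at an estimated correlation of 0.218, the organ difference was called for 2825 genes. As a fixed block over 14 arrays it was called for 2348, with 170 and 146 opposite movers. Of these 7 lung arrays, 5 correlated best with their own number.

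The precision of the lung changes is limited by fetal lung 26B and 80B and by lung array 12 at 10 weeks, whose weight was 0.219. Leaving out array 12 gave the most organ differences of any single lung array, 2656, against 2648 without 26B and 2554 without 80B.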

Other observations

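Several lists held organ differences in size without a reversal. Of 14 genes of MHC class II presentation, 10 rose in lung and 9 in kidney, with none falling, and the change was higher in lung for 7 and lower for none. BOLA-DRB3, a class II chain, rose by 3.44 ± 0.14 in lung and 2.05 ± 0.16 in kidney, and IGHM, the heavy chain of immunoglobulin M, by 4.87 ± 0.18 and 1.99 ± 0.30. Of 21 interferon response genes, 7 were higher and none lower (9 and 1 without fetal lung 26B and 80B), and IFI44 rose by 2.97 ± 0.34 in lung with 0.07 ± 0.16 in kidney, which did not pass. Of 31 xenobiotic and antioxidant enzymes, 25 rose in kidney and 14 in lung, and the organ difference was higher for 4 and lower for 10, or 7 and 9 without fetal lung 26B and 80B. CYP4B1, a cytochrome P450 enzyme, rose by 4.07 ± 0.17 in lung with 0.17 ± 0.16 in kidney, and the soluble epoxide hydrolase EPHX2 rose by 2.21 ± 0.07 in kidney with -0.71 ± 0.33 in lung.

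The list of imprinted genes was split, with 5 organ differences higher in lung and 5 lower (7 and 4 without fetal lung 26B and 80B). PHLDA2 fell by 3.18 ± 0.24 in kidney with -0.01 ± 0.23 in lung, and the cell cycle inhibitor CDKN1C fell in both, by more in kidney (organ difference 1.10 ± 0.14). PEG10 fell by 1.63 ± 0.15 in lung, and its kidney change of -0.35 ± 0.14 did not pass. Among 16 genes of cholesterol, bile and xanthine handling, SQLE, an enzyme of cholesterol synthesis, fell by 2.51 ± 0.15 in kidney and less in lung, where it fell by 0.52 ± 0.16, and CYP27A1, which oxidises cholesterol, reversed, with 0.73 in lung and -0.41 in kidney.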
